A study of Mus musculus with 2 samples.

Results

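Acute phase, adhesion and C/EBP genes were followed in differentiated C2C12 cells that expressed a constitutively active estrogen receptor α. The 10 genes listed were Saa3, Lcn2, Cebpa, Cebpb, Cebpd, Icam1, Vcam1, Il1rl1, Csf1 and Tnfrsf12a, and each was read through probe sets that name a single gene. Of the 19938 genes named on the array, 9 of these 10 had such a probe set, 1 probe set each; Il1rl1 was not analysed here. The line C2C12 is an established mouse myoblast line that fuses into myotubes when serum is withdrawn. Both cultures grew in 10% fetal bovine serum, were kept for 7 days in 2% horse serum, and then received virus for 48 h at a multiplicity of infection (infectious particles per cell) of 30. The Ad-caERα culture received an adenovirus with the constitutively active receptor, and the Ad-DsRed culture, the control, an adenovirus with the red fluorescent protein DsRed, so virus and infection were shared by both groups. The labels give neither the promoter of the vectors nor the part or species of the receptor, and there was no uninfected culture among the 2 samples.

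The acute phase response is the switch in gene expression that follows infection or injury. Inflammatory cytokines such as interleukin-1, interleukin-6 and TNF act through NF-κB, STAT3 and the C/EBP transcription factors, which are basic leucine zipper proteins that pair with one another and bind the promoters of acute phase genes. Serum amyloid A3 (Saa3) and lipocalin 2 (Lcn2) are acute phase genes that many tissues express outside the liver. In muscle, inflammatory signals also change adhesion molecules of the immunoglobulin family and secreted factors through which muscle cells and leukocytes meet.

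Each group was 1 array, so the groups could not be tested against each other, and the values below have no replicate error. Signals are deposited log2 values, and the difference is Ad-caERα minus Ad-DsRed; where a pair of values stands without group names, Ad-DsRed comes first. A gene was called measured when its higher value passed a log2 signal of 5.11, which 95% of 1212 odorant and pheromone receptor probe sets, taken as silent in muscle, do not reach; 13556 genes passed. The difference had an SD of 0.27 over these genes, 0.12 over the 57 genes of ribosomal proteins, and 0.13 when probe sets for the same gene were compared. Esr1, the gene of estrogen receptor α, was at 7.38 in Ad-DsRed against 8.44 in Ad-caERα. All 14 skeletal muscle markers, among them Ckm, Acta1, Des and Myog, passed the floor on both arrays.

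Of the 9 genes on the array 8 were measured, and Lcn2 lay below the floor on both arrays. Saa3 was the only one lower by 2-fold or more, as were 0.0959% of all measured genes, and 0 were higher by 2-fold, against 0.590%. At 1.5-fold Saa3 and Vcam1 were lower, beside 0.885% of all measured genes, and Cebpb was higher, beside 1.82%. The other 5 measured genes, Cebpa, Cebpd, Icam1, Csf1 and Tnfrsf12a, differed by less than 0.3 on the log2 scale. The median difference of the 8 was -0.074, against 0.0017 over all measured genes; 5 lay below 0 and 3 above. In these bulk samples fewer cells of a type and less RNA per cell cannot be told apart.

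**Figure D1:**
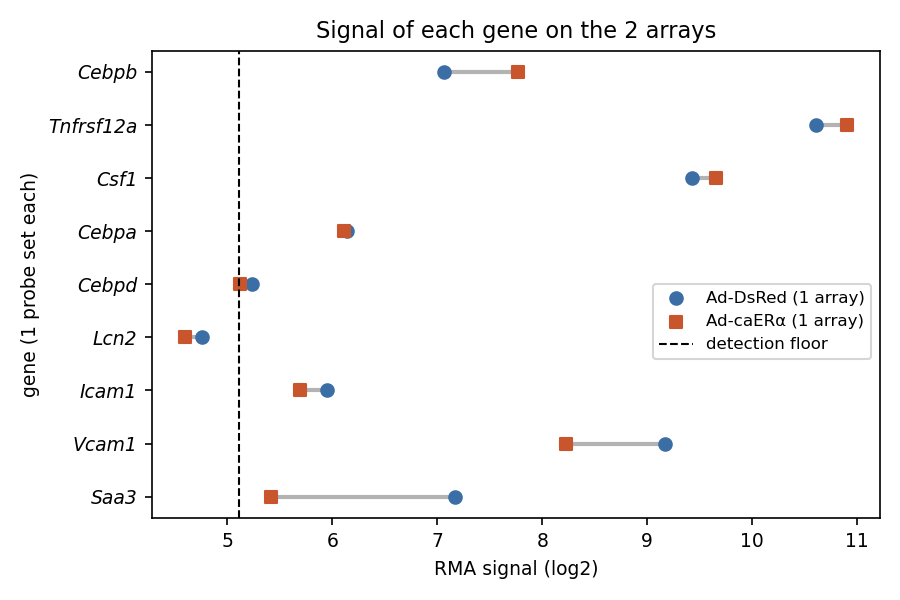
RMA signal (log2) of each of the 9 genes on the Ad-DsRed array (circles) and the Ad-caERα array (squares), 1 array each, ordered by the difference; the dashed line is the detection floor at 5.11. Saa3 moved from 7.17 to 5.41 and Vcam1 from 9.16 to 8.23, Cebpb lay to the right in Ad-caERα, and both values of Lcn2 lay left of the floor. Levels of different genes come from different probes and are not compared.

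The bases before the start of 3 of these genes are shown because they hold a C/EBP regulator and both acute phase genes: Saa3, with the lowest difference, Lcn2, the other acute phase gene, and Cebpb, with the highest. They are the 250 bases upstream of the RefSeq start in assembly GRCm38.p6, 5′ to 3′ on the strand of the gene, and capitals mark matches to a C/EBP motif. The Saa3 window lies at chr7:46715677-46715926 (minus strand), inside the span annotated for the gene, which reaches further upstream to 46719615. The Lcn2 window lies at chr2:32387740-32387989 (minus strand) and the Cebpb window at chr2:167688665-167688914 (plus strand).
Saa3: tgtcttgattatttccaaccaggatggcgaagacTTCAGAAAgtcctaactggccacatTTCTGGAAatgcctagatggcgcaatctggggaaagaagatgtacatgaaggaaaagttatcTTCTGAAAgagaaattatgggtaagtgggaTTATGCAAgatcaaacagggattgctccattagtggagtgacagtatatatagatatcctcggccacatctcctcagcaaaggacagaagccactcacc
Lcn2: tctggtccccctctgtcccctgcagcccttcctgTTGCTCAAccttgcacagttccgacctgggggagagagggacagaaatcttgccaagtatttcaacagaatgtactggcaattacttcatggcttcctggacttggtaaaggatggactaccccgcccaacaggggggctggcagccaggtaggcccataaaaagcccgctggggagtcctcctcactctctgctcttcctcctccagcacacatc
Cebpb: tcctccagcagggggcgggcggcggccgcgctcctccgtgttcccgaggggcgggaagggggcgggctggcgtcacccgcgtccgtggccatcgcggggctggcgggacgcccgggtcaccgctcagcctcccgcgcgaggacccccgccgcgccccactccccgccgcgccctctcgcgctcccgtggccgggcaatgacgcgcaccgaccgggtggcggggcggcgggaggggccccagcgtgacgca

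The C/EBP motif searched was TTNNGNAA, on both strands. Saa3 held 4 matches, TTCAGAAA, TTCTGGAA, TTCTGAAA and TTATGCAA, whose first bases lay at -216, -191, -129 and -99 from the start. Of the 32851 mouse promoter windows of the same length, 36.8% held at least 1 match and 0.591% held 4 or more. These shares were not matched for base composition. The fixed letters of the motif are mostly A and T, and the Saa3 window had 43.2% G and C, under the median over all windows. Lcn2 held 1, TTGCTCAA at -216, which matches on the opposite strand. Cebpb, with 81.6% G and C against a median of 52.4% over all windows, held none.

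The table gave windows for 8 of the 10 genes; Cebpd and Vcam1 had no entry. Icam1 (TTTGGAAA at -156), Tnfrsf12a (TTACTGAA at -143, on the opposite strand) and both windows of Il1rl1 held 1 C/EBP match each. Thus 5 of the 8 genes had at least 1. Counted by window it was 6 of 9, beside the 36.8% of all windows, a share not matched for base composition. The NF-κB consensus motif, present in 7.25% of all windows, was found in 1 gene, Csf1, as GGAAAGTCCC at -154, which matches on the opposite strand. It overlapped no match to another motif. The AP-1 motif TGANTCA, held by 6.75% of all windows, was in 0 of the 9 windows. The full palindromic estrogen response element, held by 0.0639% of all windows, was also in 0. The core of that element, GGTCA, held by 35.2%, was found in Cebpb at -136 and in the Il1rl1 window on chromosome 1 that starts at 40439379, where it lay at -184 and, on the opposite strand, at -88. These matches describe letters in a short window and were not measured as binding.

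**Figure D2:**
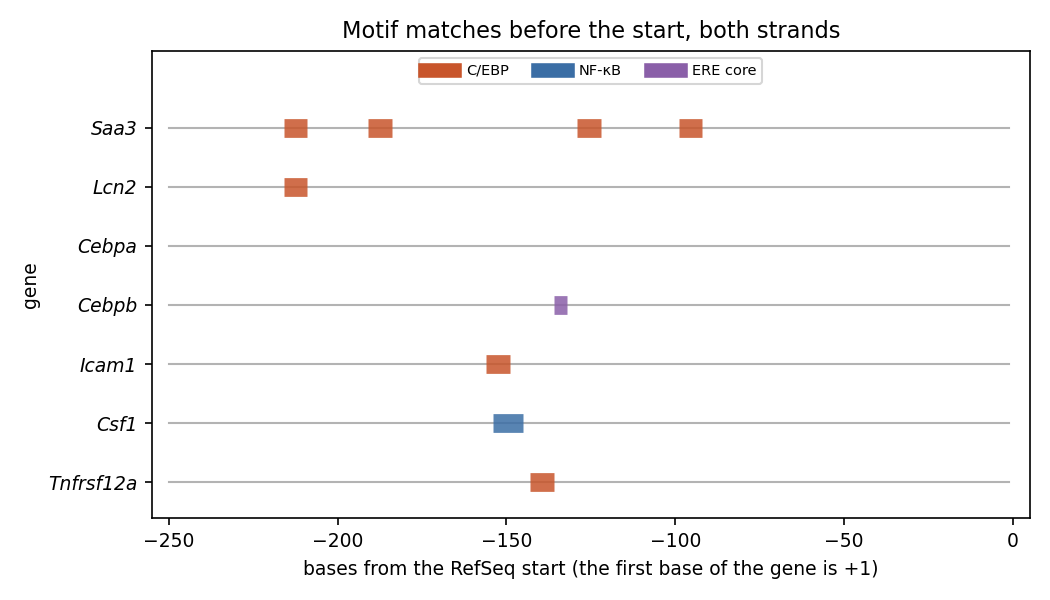
Matches to the searched motifs, on both strands, along the 250 bases before the RefSeq start of the 7 genes with a single window; the x axis is the distance in bases from the start and each block spans a match. Saa3 carries 4 C/EBP blocks, Cebpa carries no block of any kind, and the NF-κB block lies in Csf1.

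Among the acute phase genes, Saa3 was much lower with the active receptor and Lcn2 was not detectable. Saa3 encodes a serum amyloid A protein made by macrophages, fat and other tissues. Its log2 signal was 7.17 in Ad-DsRed against 5.41 in Ad-caERα, a 3.38-fold difference (-1.76), and the Ad-caERα value stood only 0.31 above the floor. It was the 4th lowest difference of the 13556 measured genes. Among the 500 measured genes nearest to it in mean level the differences had a median of -0.029 and an SD of 0.31. With the floor at the 99th percentile of the receptor probe sets, a log2 signal of 6.16, the Ad-caERα value falls below the floor and the fold becomes at least 2.01.

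Lcn2, which encodes a secreted protein that binds bacterial iron carriers, had values of 4.76 in Ad-DsRed against 4.60 in Ad-caERα. Both lay below the floor, so no fold is given. The other serum amyloid genes were below the floor on both arrays as well: Saa1, Saa2 and Saa4 had values between 2.81 and 3.99. Serum amyloid genes are related in sequence, and how far their probes share signal was not tested.

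Most of the wider acute phase list was below the floor, and Saa3 was the only member of it past 2-fold. Of 32 genes listed 29 had a single-gene probe set and 9 were measured, 6 below 0 and 3 above, with a median of -0.13. Next after Saa3 was Lbp, the lipopolysaccharide-binding protein, at 7.11 in Ad-DsRed against 6.47 in Ad-caERα (1.56-fold lower). The bright members lay close together on the arrays. Cp, the copper oxidase ceruloplasmin, was at 10.99 and 10.78, and the metallothionein genes Mt1 and Mt2 had differences of 0.14 and -0.13. Hp, which encodes haptoglobin, and Itih3 were below the floor in Ad-DsRed and were at least 1.13-fold and at least 1.05-fold higher. These bounds give them no order against Mt1. Both are counted among the 3 above 0 but were measured only through their Ad-caERα values, so the floor fixed their direction.

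Receptors and partners of the acute phase proteins went both ways. Of 8 measured 4 were above 0 and 4 below, with a median of 0.054 and 0 past 2-fold. Tlr2, a Toll-like receptor that binds serum amyloid A as well as bacterial lipoproteins, was 1.67-fold higher (7.23 in Ad-DsRed, 7.97 in Ad-caERα). Tlr4, the lipopolysaccharide receptor, was at 9.80 on both arrays, while its co-receptor Cd14 had a difference of 0.29. The lowest were Slc22a17, described as a receptor for lipocalin 2 (-0.33), and Ager (-0.18).

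The 3 C/EBP genes listed did not share a direction or a size. Cebpb encodes C/EBPβ, which is induced in the acute phase response. Its log2 signal was 7.07 in Ad-DsRed against 7.77 in Ad-caERα, a 1.62-fold difference (0.70), the 167th highest of 13556. The 500 genes nearest in level had a median difference of 0.036 and an SD of 0.26.

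Cebpa encodes C/EBPα, a factor of differentiated liver, fat and myeloid cells. It was at 6.14 in Ad-DsRed against 6.11 in Ad-caERα (-0.031), a difference below the SD of 0.13 between probe sets of one gene. Cebpd, which encodes C/EBPδ, another factor induced by cytokines, was at 5.24 in Ad-DsRed against 5.12 in Ad-caERα (-0.12). Both values of Cebpd were at the edge of detection, 0.13 and 0.014 above the floor. The 500 genes nearest in level to Cebpd had a median difference of -0.083, so its difference was close to that of weak genes in general. With a loess correction for level, Cebpa and Cebpd turned to 0.020 and 0.0029, so neither has a direction here.

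All 14 genes of the C/EBP family and partner list were measured, 8 above 0 and 6 below, with a median of 0.049. None passed 2-fold in either direction. The highest was Nfil3, a basic leucine zipper repressor, at 7.20 in Ad-DsRed against 8.01 in Ad-caERα (1.75-fold), with Cebpb next. Ddit3, which encodes the C/EBP partner CHOP, had a difference of 0.23. Cebpg, the family member that lacks an activation domain, had a difference of -0.083 and Cebpe of -0.071. The lowest were Batf3 (-0.20) and Batf2 (-0.12). Cebpe, Batf3 and Batf2 were weak, at 5.33, 5.52 and 5.56 in Ad-DsRed, as was Batf (5.43), which had a difference of 0.054. Their levels lay between those of Cebpd and Icam1, whose neighbours in level had median differences of -0.083 and -0.085.

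Signalling genes upstream of the C/EBP factors lay around 0 as a group, with one receptor gene past 2-fold. Of 17 measured genes 10 were above 0 and 7 below, with a median of 0.015. Il6ra, the ligand-binding chain of the interleukin-6 receptor, was at 7.91 in Ad-DsRed against 8.97 in Ad-caERα (2.09-fold higher). Its partner Il6st, which carries the signal, was at 10.73 and 10.61, and Stat3, the transcription factor activated by it, was at 10.71 and 10.72. Second highest was Myd88, an adaptor of the interleukin-1 and Toll-like receptors (0.29). The cytokine genes Il6, Il1a and Il1b were below the floor on both arrays. The lowest were Il1rap, the shared accessory chain of the interleukin-1 receptor family (-0.42), and Nfkbiz, the gene of IκBζ, a nuclear cofactor needed for Lcn2 induction (-0.39).

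Among NF-κB genes 10 were measured, 4 above 0 and 6 below, with a median of -0.047 and 0 past 2-fold. Nfkbia, which encodes the inhibitor IκBα, was highest at 8.86 in Ad-DsRed against 9.70 in Ad-caERα (1.79-fold), followed by Ikbkg (0.36). Rela, the main activating subunit, was at 10.50 and 10.49. Rel (-0.34) and Tnfaip3, the gene of the feedback inhibitor A20 (-0.28), were lowest.

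**Figure D3:**
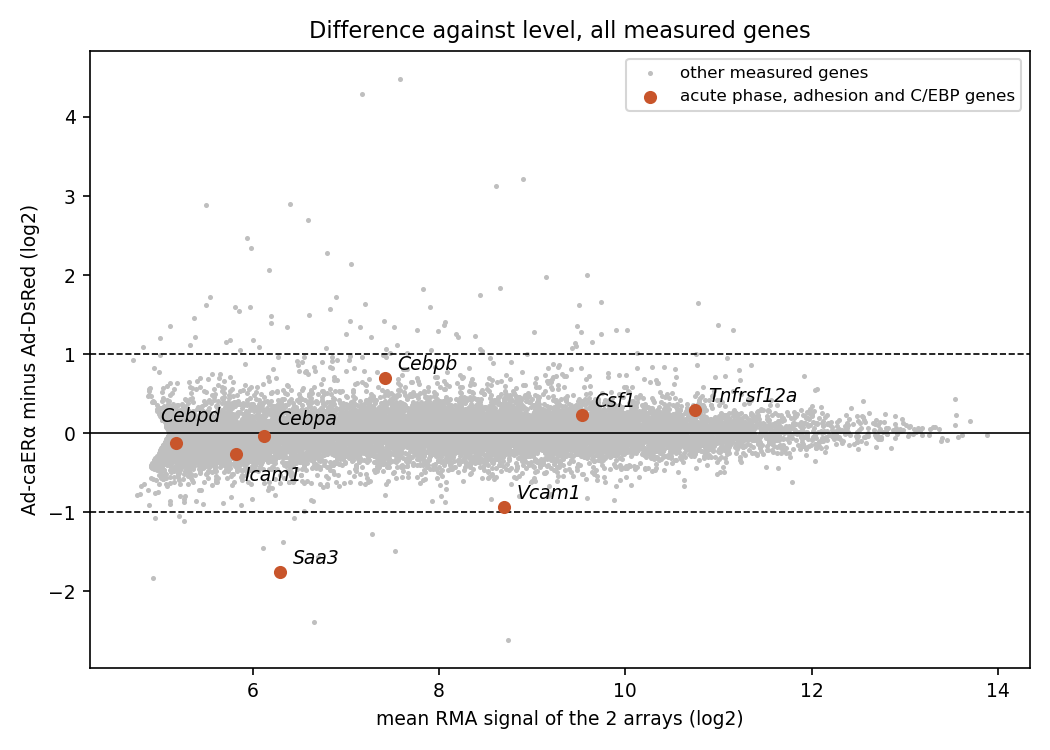
Difference (Ad-caERα minus Ad-DsRed, log2) against the mean RMA signal of the 2 arrays (log2) for 13556 measured genes (grey), with the 8 measured acute phase, adhesion and C/EBP genes named; dashed lines mark 2-fold. Saa3 lies below the lower line at -1.76 and Vcam1 just above it at -0.94, while the 6 others lie between the lines, Cebpb highest at 0.70.

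Of the adhesion genes Vcam1 was lower by nearly 2-fold and Icam1 by a small amount. Vcam1 encodes vascular cell adhesion molecule 1, which binds the integrin α4β1 and is also found on myoblasts and muscle progenitors. Its log2 signal was 9.16 in Ad-DsRed against 8.23 in Ad-caERα, a 1.91-fold difference (-0.94). That was the 16th lowest of 13556, and the 500 genes nearest in level had a median of 0.028 and an SD of 0.29. Both values were more than 3 above the floor. With differences centred on the ribosomal protein genes, whose median was 0.066, Vcam1 reached -1.001 and passed the 2-fold rule. With that centring 16 of the 13556 measured genes were lower by 2-fold.

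Icam1 encodes intercellular adhesion molecule 1, which binds the β2 integrins of leukocytes. It was at 5.95 in Ad-DsRed against 5.69 in Ad-caERα, a 1.20-fold difference (-0.26). The 500 genes nearest in level had a median of -0.085 and an SD of 0.27, so the difference of Icam1 was within the spread of genes of like signal.

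The integrins that bind these molecules included one gene with a difference close in size to that of Vcam1. Itga4, the α4 chain of the VCAM-1 receptor, was at 8.97 in Ad-DsRed against 8.15 in Ad-caERα (1.77-fold lower). Its partner chain Itgb1, which many integrins share, was at 11.54 and 11.51. All 4 measured integrin genes were below 0, with a median of -0.22, and 0 passed 2-fold. Itgb1 and Itgb7 lay near 0, at -0.026 and -0.046. Itgb2, the shared β2 chain of leukocyte integrins, was at least 1.10-fold lower, its Ad-caERα value lying under the floor. Itgb2 was measured only through its Ad-DsRed value, so the floor fixed its direction. Once signals under the floor were set to the floor value, the median of the 4 was -0.091. Itgal and Itgam, the leukocyte α chains that bind ICAM-1, were below the floor on both arrays by their single-gene probe sets, as were Itgax and Itga9. A further 3 probe sets name Itgam together with another gene, with values of up to 12.14, and were not assigned to it.

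Of the other 12 measured adhesion molecules of the immunoglobulin, selectin and related families 9 were below 0 and 3 above, against 48.8% of all measured genes below 0, and their median was -0.17. None of them reached 1.5-fold. The lowest were L1cam, a neural adhesion molecule (9.72 in Ad-DsRed, 9.32 in Ad-caERα), and Sele, E-selectin (5.74 and 5.44). Ncam1, a marker of myoblasts and myotubes, had a difference of -0.18 and Cd44, the hyaluronan receptor, of -0.18. The highest were Icam4 (0.059) and Icam5 (0.049). The list mixes bright and weak genes, and Icam2 and Pecam1 were below the floor on both arrays. Selplg, counted among the 9 below 0, had an Ad-caERα value under the floor and was at least 1.09-fold lower. It was measured only through its Ad-DsRed value, so the floor fixed its direction.

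**Figure D4:**
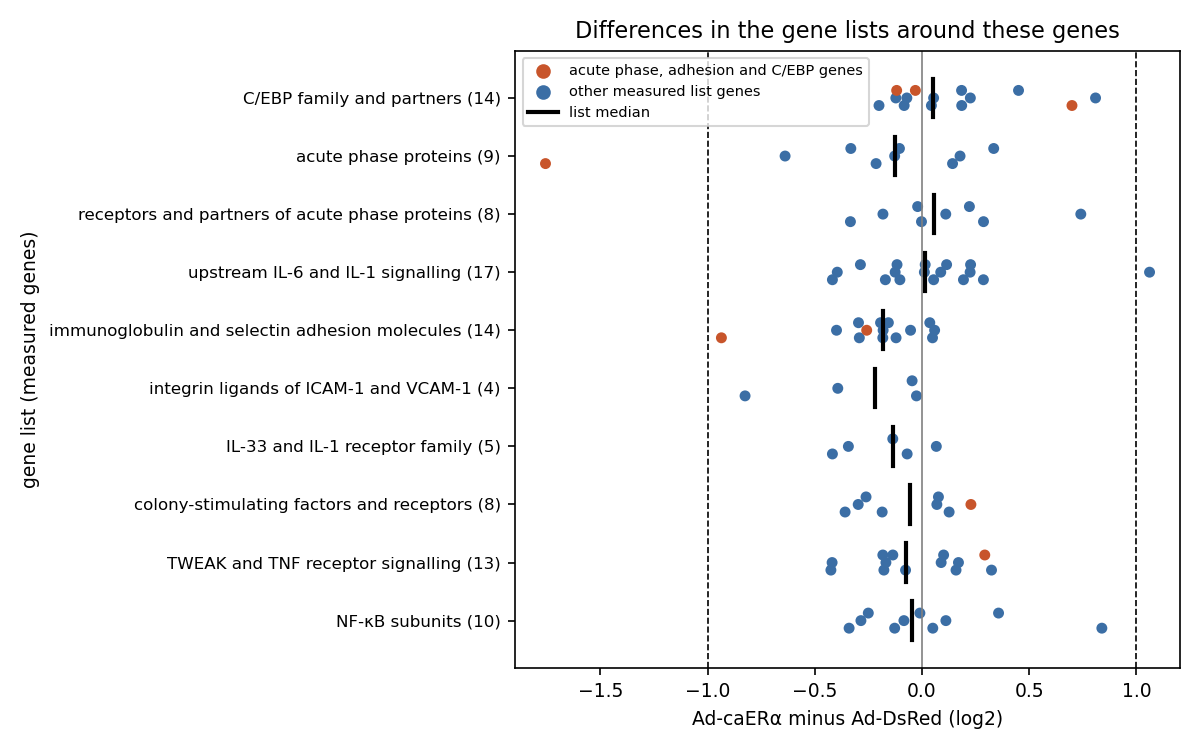
Difference (Ad-caERα minus Ad-DsRed, log2) of each measured gene in the 10 lists around these genes, with the number measured in brackets; orange points are the acute phase, adhesion and C/EBP genes described here, blue points the other list genes, black bars the list medians and dashed lines 2-fold. Saa3 at -1.76 and Il6ra at 1.06 are the only points outside the lines, and the list medians run from -0.22 for the integrins to 0.054 for receptors and partners of acute phase proteins. Once signals under the floor are set to the floor value, the integrins are at -0.091 and the adhesion list, at -0.17, is lowest.

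The secreted factor Csf1 and the cytokine receptor Tnfrsf12a were well above the floor and slightly higher with the active receptor. Csf1 encodes macrophage colony-stimulating factor. It was at 9.42 in Ad-DsRed against 9.65 in Ad-caERα, a 1.17-fold difference (0.23), and the 500 genes nearest in level had an SD of 0.25. Its receptor gene Csf1r was below the floor on both arrays, while Il34, the other ligand of that receptor, was at 7.95 and 7.69 (-0.26).

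Of the 8 measured colony-stimulating factor genes 4 were above 0 and 4 below, with a median of -0.058 and 0 past 1.5-fold. Csf1 was the highest and Csf3 next (0.13), though Csf3 was at the edge of detection, at 5.13 in Ad-DsRed against 5.26 in Ad-caERα. Kit, a receptor of the same family as Csf1r, was at least 1.03-fold lower, with an Ad-caERα value under the floor, and Csf2ra was at -0.30. Kit is counted among the 4 below 0 but was measured only through its Ad-DsRed value, so the floor fixed its direction.

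Tnfrsf12a encodes Fn14, the receptor of the cytokine TWEAK, which is known for its induction in injured and denervated muscle. It was at 10.61 in Ad-DsRed against 10.90 in Ad-caERα, a 1.22-fold difference (0.29), the 1238th highest of 13556. The 500 genes nearest in level had a median of 0.012 and an SD of 0.21. Tnfsf12, the gene of TWEAK, is named only on a probe set shared with other genes and was given no value.

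In the TWEAK and TNF receptor list 13 genes were measured, 6 above 0 and 7 below, with a median of -0.077 and 0 past 1.5-fold. Tradd, an adaptor of TNF receptor 1, was highest (0.32), with Tnfrsf12a next. Tnfrsf21 (-0.42) and the death receptor gene Fas (-0.42) were lowest. The receptor genes Tnfrsf1a (0.17) and Tnfrsf1b (0.10) lay above 0, and Tnf was below the floor on both arrays.

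For the receptor Il1rl1 the ligand and relatives could be read. Il33, the ligand of the receptor ST2 that Il1rl1 encodes, was at 9.40 in Ad-DsRed against 9.46 in Ad-caERα (0.067), the highest of 5 measured genes of the interleukin-1 receptor family list. The other 4 were below 0, the lowest being the accessory chain Il1rap (7.80 and 7.38) and the interleukin-18 inhibitor Il18bp (7.36 and 7.02). The list's median was -0.14, with 0 past 1.5-fold.

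Among the 10 lists the medians of 6 changed sign under at least 1 other way of processing, and those of the acute phase, adhesion, integrin and interleukin-1 receptor family lists stayed below 0 in all that were run.

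Leukocyte, hepatocyte, endothelial and adipocyte markers were mostly under the floor, whereas most fibroblast markers were above it. Of 11 leukocyte markers 2 were measured, Cd68 (0.25) and Cd3e (-0.033), and the summed linear signal of the 11 was 325 in Ad-DsRed against 335 in Ad-caERα; Ptprc, Adgre1, Lyz2 and Csf1r stayed under the floor throughout. Of 6 hepatocyte markers 2 were measured, Apoa1 (-0.36) and Serpinc1 (at least 1.07-fold lower), with sums of 186 and 155, and Alb and Ttr were below the floor. Serpinc1 was measured only through its Ad-DsRed value, so the floor fixed its direction. Of 8 endothelial markers 3 were measured (sums of 318 and 308) and Cdh5, Kdr and Pecam1 were below it. Of 5 adipocyte markers 2 were measured (132 and 121), with Adipoq and Fabp4 below. Each sum includes the markers below the floor, whose signal cannot be told from background. Of 8 fibroblast markers 6 were measured, 4 below 0 and 2 above, with a median of -0.12, the same direction as Saa3 and Vcam1. Medians of the measured skeletal muscle (-0.064), endothelial (-0.13), adipocyte (-0.11) and hepatocyte (-0.38) markers were also below 0. That of the leukocyte markers was 0.11. Among the fibroblast markers Pdgfrb (-0.39), Pdgfra (-0.28) and Col1a2 (-0.24) were lowest, and Dcn (0.065), Lum (0.019) and Col1a1 (-0.0032) lay near 0. The sums of the 8 were 12010 and 11969, to which Dcn, at 13.11 and 13.18, gave the most. The part of other cells in the signals was not tested.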

How the data were processed

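Total RNA from 2 C2C12 cultures, 1 per group (Ad-DsRed and Ad-caERα, from the sample titles), was labelled from 150 ng and hybridised to Affymetrix arrays. The table deposited by the authors holds log2 signals, 1 per probe set, made with Affymetrix Expression Console and RMA, per the submitters' processing notes; no versions are named there. RMA quantile-normalizes arrays, so a change in total mRNA is not visible, and it compresses differences of weak signals. The table held 35556 probe sets, of which 21789 name 1 gene in the platform annotation, 1621 several and 12146 none here; 21698 of the single-gene probe sets matched RefSeq (GRCm38.p6) by gene ID. Where a gene had several probe sets, the one with the highest mean was used. Column medians were 6.05 and 6.02, and 63.2% and 62.2% of probe sets passed the floor in Ad-DsRed and Ad-caERα. With 1 array a group the precision of a value is unknown, no test was made, and genes were counted by a 2-fold or 1.5-fold rule.

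Promoter windows came from RefSeq. Named were all 10 genes, Esr1, and in each of 10 lists members past 2-fold and up to 2 at each end; a few more were named for what they encode, after their values were seen. Members and lists were chosen with earlier results of these data known. Alternatives covered the floor, centring, normalization, probe sets, fold rule and list summary. The code was tested on simulated data. Python 3.11.15, numpy 2.4.6, pandas 2.3.3, statsmodels 0.14.6 and matplotlib 3.10.9 were used.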

Additional observations from a re-analysis of the deposited data

How the results depend on the processing

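No paired analysis was possible because there was a single array for either vector, which also left no replicate to drop. The differences of the 8 measured genes moved by less than 0.13, the SD between probe sets of one gene, in all 61 recalculations. Many of these could not have moved them further. Each gene had 1 probe set and both values above the main floor, so averaging probe sets or raising values to that floor left its difference as it was. Changing the floor only decided which genes counted as measured, and their deposited values were kept. At the 99th percentile the Ad-caERα value of Saa3 lay under the floor, where its fold is only at least 2.01. Centring lowered every difference by a fixed 0.0017 or 0.066. Only quantile normalization and the loess correction were free to move single genes. Saa3 ranged from -1.82 to -1.72, Vcam1 from -1.001 to -0.94 and Cebpb from 0.63 to 0.70. The Saa3 range does not take in the bound of at least 2.01-fold at the 99th percentile, so it does not measure how firm that difference is. In 2 of the 61, both from the loess correction, the sign changed, for Cebpa (0.020) and Cebpd (0.0029). The count of genes lower by the rule was 2 when centred on ribosomal protein genes and 2 at 1.5-fold, and 1 was higher at 1.5-fold. Over all 13556 measured genes that centring gave 16 lower by 2-fold, against 13 without it. Over all measured genes 247 were higher and 120 lower at 1.5-fold, and 27 and 4 at 3-fold. With the floor at the 99th percentile 5 of the genes stayed measured, and the list medians became 0.21 for the C/EBP family, -0.27 for acute phase proteins and -0.43 for the integrins, from fewer genes; with it at the 90th percentile Lcn2 was measured too, making 9; raising values below the floor to it gave -0.091 for the integrins and 0.011 for the colony-stimulating factor list; the mean of the acute phase list was -0.28, which includes Saa3. The other 96 of 100 list recalculations moved by less than 0.13, and 9 of the 100 changed sign. Weak signals limit Saa3 in Ad-caERα, Cebpd and Lcn2.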
